A study of Homo sapiens with 4 samples.

Results

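The proteasome is the large protease that degrades ubiquitin-tagged proteins. Its core particle is a stack of alpha and beta rings, and 3 beta subunits cut the chain: PSMB5, PSMB6 and PSMB7. A regulatory cap of ATPases (the PSMC genes) and further subunits (most PSMD genes) recognises, unfolds and feeds the substrate. In immune cells and after interferon, PSMB8, PSMB9 and PSMB10 take the place of the catalytic subunits and form the immunoproteasome, which favours peptides for antigen presentation. Ring-shaped activators (PSME genes) can replace the cap, and dedicated chaperones (PSMG1 to PSMG4, PSMD5, PSMD9 and PSMD10) assemble the particle. In red cell precursors the ubiquitin-proteasome system removes proteins that maturing cells no longer use.

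The genes described here are the 50 protein-coding genes, of 20149 in GENCODE on hg19, whose symbols begin with PSMA to PSMG followed by a digit. By role, 7 encode the alpha ring, 7 the constitutive beta ring, 6 the cap ATPases, 11 other cap subunits, 3 the immunoproteasome, 5 the activators with the regulator PSMF1, and 7 the assembly chaperones. A further 2 encode tissue-specific subunits, PSMA8 of the testis and PSMB11 of the thymus. The remaining 2 share only the name pattern: PSMC3IP is a recombination protein and PSME3IP1 a binding partner of PSME3.

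The data are ChIP-seq peak lists of H3K27ac, a histone mark of active promoters and enhancers, from K562 cells, an established human erythroleukaemia line. Cells were transduced with a control shRNA (shNT) or with 1 of 2 shRNAs against TFAM, a packaging protein and transcription factor of mitochondrial DNA, here hairpin 1 (TFAM-sh1) and hairpin 2 (TFAM-sh2). The series asked how excess histone acetylation in erythroid cells short of TFAM alters this mark. Nothing in the labels gives the time after transduction, the extent of knockdown or whether the lines were clonal, and the input was left out as not analysed here.

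Each condition had 1 library and 1 peak list, with 23413 peaks in the control, 23819 in hairpin 1 and 27007 in hairpin 2. No spread between replicates exists, so no test between conditions is given, and the difference between the hairpin libraries is the only gauge of how far libraries vary. The sequencing depth is unknown. No peak was wider than 8841 bp in any list, and whether wider domains were left out is not known. Of 9 erythroid markers, 4 were marked at the promoter in every list (GYPB, HBZ, LMO2 and TFRC), TAL1 had a promoter peak in the control and hairpin 1, and GATA1, KLF1, HBE1 and HBG2 had no covered sequence within 5 kb in any. Of 6 lymphoid markers none was marked in every list, with CD3E, MS4A1 and CD79B at 0 in all. CD3D was at 0 in the control and covered in both hairpins, and CD79A was covered in hairpin 1 alone. Of 6 stromal or epithelial markers EPCAM and KRT8 were marked in every list, KRT8 with 3651, 7468 and 6073 bp in the control, hairpin 1 and hairpin 2. COL1A1 had 0, 650 and 748 bp in that order and gained a promoter peak in both hairpins, PDGFRB had 0, 0 and 1140 bp, and COL1A2 and KRT5 were at 0 in all. The part of these markers in the values below was not tested. The TFAM promoter was covered for 2983, 2787 and 2447 bp in the control, hairpin 1 and hairpin 2, which does not measure the knockdown.

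The promoters below are shown because they stand for the different patterns among these genes: PSMA7 with the widest gain in coverage, PSMD8 with a small one, PSMC6 and PSMD3 with less coverage in both hairpins, PSMB3 with the longest covered stretch in the control, PSMB1 with a peak that is split in one list, and the catalytic subunits PSMB7 and PSMB5 with nearly constant coverage. Each run is the longest part of the 150 bases before the canonical start site that no annotated exon of either strand overlaps, read from GRCh37 on the strand of the gene. Capitals mark matches, on either strand, to TGACNNNGC (antioxidant response element, the site type of NFE2L1 and NFE2L2), CCGGAAGT (ETS factors), CCAAT (NF-Y) and GGGCGG (SP and KLF factors).
PSMA7 (chr20:60718497-60718600, minus strand): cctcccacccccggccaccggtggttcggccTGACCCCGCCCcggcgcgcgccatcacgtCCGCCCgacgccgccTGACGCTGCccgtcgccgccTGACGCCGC
PSMB3 (chr17:36908844-36908993, plus strand): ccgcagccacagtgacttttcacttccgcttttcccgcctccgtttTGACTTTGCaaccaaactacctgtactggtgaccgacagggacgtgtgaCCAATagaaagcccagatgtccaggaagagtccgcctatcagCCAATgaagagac
PSMD3 (chr17:38136910-38137059, plus strand): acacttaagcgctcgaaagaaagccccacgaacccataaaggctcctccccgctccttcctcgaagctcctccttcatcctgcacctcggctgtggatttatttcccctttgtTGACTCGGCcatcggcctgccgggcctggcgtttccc
PSMB1 (chr6:170862396-170862545, minus strand): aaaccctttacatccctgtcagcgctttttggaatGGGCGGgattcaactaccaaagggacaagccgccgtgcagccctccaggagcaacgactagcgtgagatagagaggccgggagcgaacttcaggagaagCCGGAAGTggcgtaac
PSMB7 (chr9:127177724-127177871, minus strand): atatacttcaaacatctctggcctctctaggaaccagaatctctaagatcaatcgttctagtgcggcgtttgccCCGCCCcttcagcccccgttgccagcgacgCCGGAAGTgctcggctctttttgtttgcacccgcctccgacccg
PSMD8 (chr19:38865061-38865202, plus strand): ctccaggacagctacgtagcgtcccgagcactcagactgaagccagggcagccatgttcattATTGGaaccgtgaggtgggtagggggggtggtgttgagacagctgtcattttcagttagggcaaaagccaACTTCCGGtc
PSMC6 (chr14:53173768-53173895, plus strand): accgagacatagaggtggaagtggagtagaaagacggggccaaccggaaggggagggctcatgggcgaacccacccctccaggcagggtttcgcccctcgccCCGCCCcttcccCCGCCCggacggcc
PSMB5 (chr14:23504110-23504259, minus strand): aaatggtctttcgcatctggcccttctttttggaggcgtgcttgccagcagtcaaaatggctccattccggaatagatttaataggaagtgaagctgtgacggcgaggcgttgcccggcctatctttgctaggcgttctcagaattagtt

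Over the window from 250 bases before to 50 after the start site, TGACNNNGC occurred in 14 of the 50 genes (28.0%, exact 95% interval 16.2 to 42.5%). It occurred in 14.0% of all coding promoters of that length and in 15.4% of those of genes marked in every list. PSMA7 held 3 matches, beginning 119, 75 and 55 bases before its start site. The first and the third of them share bases with GGGCGG matches on the other strand. PSMD9 and PSMD3 held 2 each.

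CCGGAAGT occurred in 14 genes as well (28.0%, 16.2 to 42.5%), against 6.09% of all coding promoters and 10.8% of the marked ones. Among its holders were PSMB1 and PSMB7 of the core, PSMC1 and PSMC2 of the cap ATPases, and PSMD8, PSMD12, PSMD13 and PSMD14 of the lid. PSME4 and PSMD12 held both kinds of match. CCAAT was found in 22 genes (44%, against 35.9% of all and 36.7% of marked promoters) and GGGCGG in 35 (70.0%, against 60.9% and 77.0%). Other motifs were rarer. AAGATGGCG, the letters of a YY1 site, was present in PSMA2, PSMB6, PSMB7 and PSMD11 (8% of the 50 genes, against 2.81% of all and 5.11% of marked promoters). The letters GCGCATGC of nuclear respiratory factor NRF1 were present in PSMA2 and PSMA4 (4%, against 4.26% and 6.78%), and the cyclic AMP response letters TGACGTCA in none, against 2.68% and 3.79%. In PSMB4, PSMB5 and PSMB10 no searched motif was found in this window.

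Nearly all proteasome promoters were marked, and the same ones in every list. A promoter peak, defined as any peak within 1 kb of the start site, was present in all 3 lists for 47 of the 50 genes (94.0%, exact Clopper-Pearson 95% interval 83.5 to 98.7%, which covers counting error only). Over all coding genes this share was 50.3%. Every core, cap, activator and assembly gene was among the 47, and in each of them the start site itself lay inside a peak in every list. No gene gained a promoter peak in both hairpins and none lost one, where 1.53% of all coding genes gained one and 0.829% lost one. The exceptions, PSMB8, PSMA8 and PSMB11, had no promoter peak in any list.

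The immunoproteasome genes differed among themselves. Values below are covered bp within 5 kb of the start site and stand in the order control, hairpin 1, hairpin 2 unless the libraries are named. PSMB10 (chromosome 16, start site 67970753), the inducible counterpart of PSMB7, had 3341, 3591 and 4168 bp. PSMB9 (chromosome 6, start site 32821969), the counterpart of PSMB6, had 1721, 1075 and 1463 bp. Its peak is shared with TAP1, a peptide transporter gene that starts 488 bp upstream on the other strand. The downstream edge of that peak lay 576 bp into PSMB9 in the control, 240 bp in hairpin 2 and only 19 bp in hairpin 1. Both hairpins thus lay below the control at PSMB9, with differences of -646 and -258 bp, and were 388 bp apart.

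PSMB8 (chromosome 6, start site 32811824), the counterpart of PSMB5, had its nearest peak 4760, 5094 and 4926 bp downstream. That peak held the start site of TAP2, the partner of TAP1, and its edge gave the 241, 0 and 75 bp counted near PSMB8. Of the tissue-specific genes, PSMB11 lay beside PSMB5, whose promoter peak ended 6182 bp away in the control, and PSMA8 had its nearest peak 36997 bp away. A promoter without a listed peak may still carry the mark.

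The constitutive catalytic genes were marked in every list. PSMB5 (chromosome 14, start site 23504109) was covered for 2662, 2773 and 2668 bp. PSMB7, on chromosome 9, had 1952, 1939 and 1812 bp. PSMB6, on chromosome 17, had 1318, 1610 and 1648 bp, so that the hairpins lay 292 and 330 bp above the control and 38 bp from each other. Within their lists the PSMB5 peak ranked at score percentile 96.9, 92.4 and 94.6, and the PSMB6 peak at 57.4, 55.7 and 60.7. These percentiles rank the score that the authors gave each peak.

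**Figure D1:**
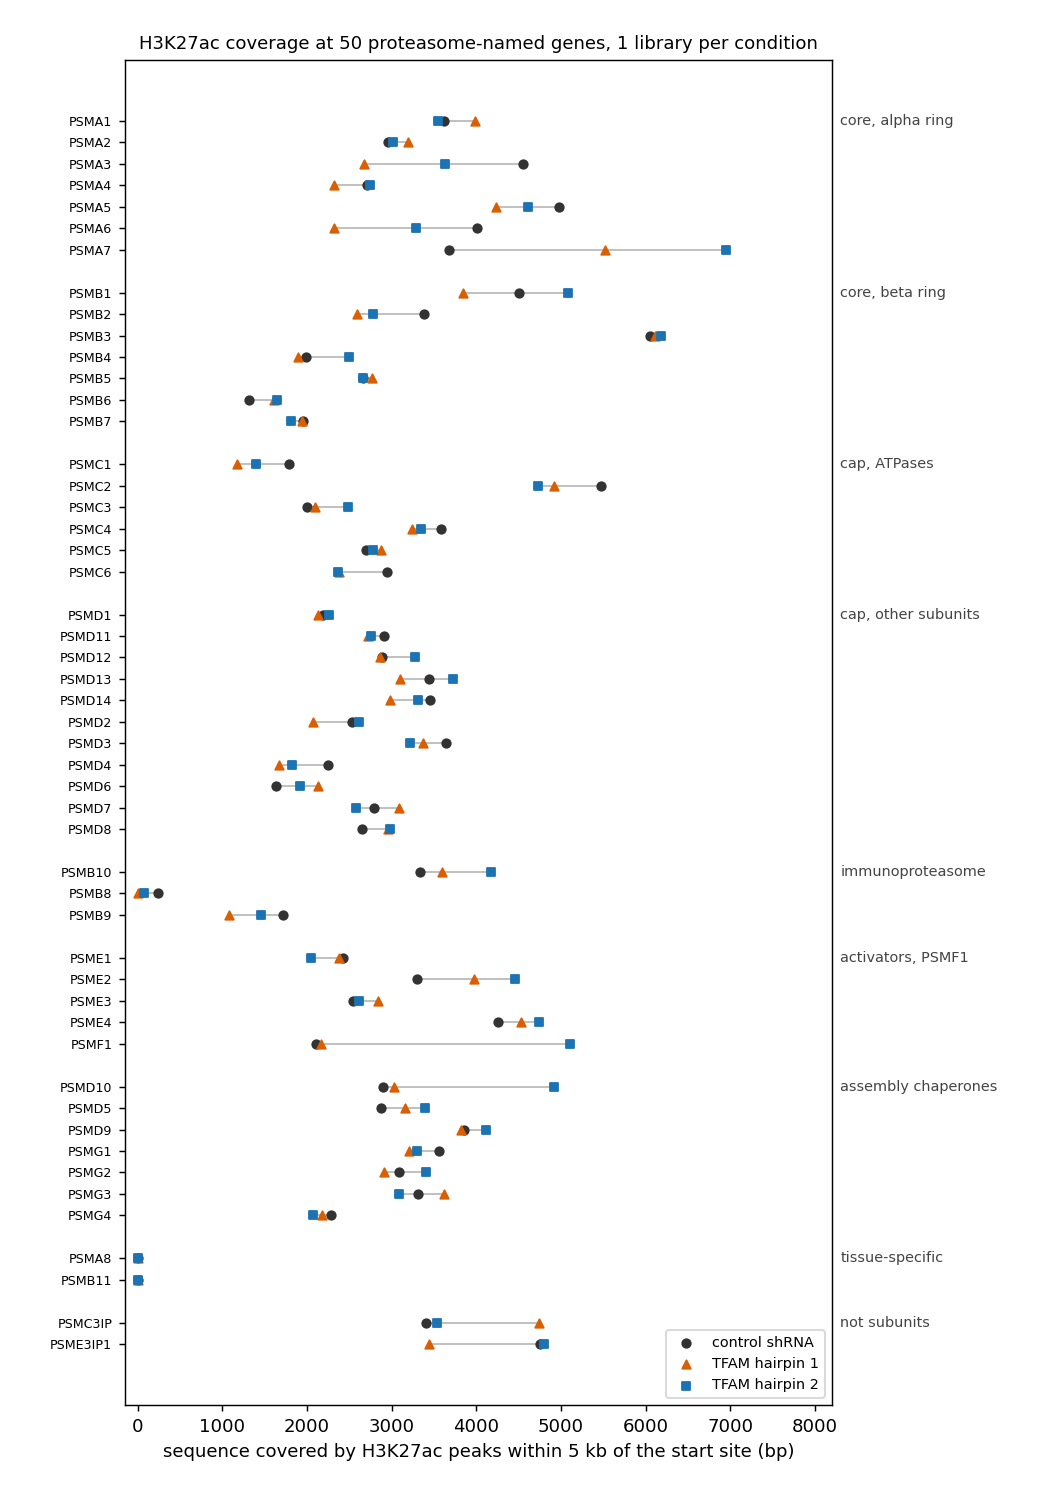
Sequence covered by H3K27ac peaks within 5 kb of the start site (x axis, bp) for each of the 50 genes (rows, by role), with 1 point per library and a grey line from the lowest to the highest. PSMB3 lies between 6053 and 6183 bp, PSMA7 runs from 3680 to 6944 bp, and PSMB8, PSMA8 and PSMB11 lie at or near 0.

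Median coverage of the 47 marked genes was 2949, 2916 and 3219 bp. The 10143 coding genes marked in every list had 2609, 2707 and 2875 bp. Hairpin 1 was above the control in 20 of the 47 genes, where 56.0% of marked coding genes were. Hairpin 2 was above it in 27 of the 47, where 66.4% of marked coding genes were. Both comparisons use the same control library. The median difference from the control was -46 bp in hairpin 1 and 63 bp in hairpin 2 for the proteasome genes, and 75 and 210 bp for all marked genes.

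The control lay below both hairpins in 17 of the 47 genes and above both in another 17. Among marked coding genes these shares were 45.0% and 22.5%, so the proteasome genes had fewer of the first kind (36.2%) and more of the second (36.2%). Because marked genes as a whole were wider in the hairpins, with a median log2 ratio to control of 0.04 in hairpin 1 and 0.11 in hairpin 2, the values were also divided by those median ratios. After that, 11 of the 47 genes were higher in both hairpins and 23 lower in both, compared with 34.0% and 34.0% of marked coding genes. Promoter G+C differed between these sets of genes as well. Its median was 54.2% in the marked proteasome genes and 57.4% in all marked genes. Among the 3528 marked coding genes with a G+C between the quartiles of the proteasome genes, 50.1 to 57.1%, the divided values were higher in both hairpins in 27.9% and lower in both in 38.6%. The part of G+C in the difference was not tested.

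A gene is called set apart here when both hairpins lay on the same side of the control, the nearer of them by at least 250 bp and by more than the hairpins differed from each other. Of the 47 genes, 7 were set apart upward and 7 downward, where 17.8% of marked coding genes were set apart upward and 7.47% downward. The upward genes were PSMA7, PSMB6, PSMD5, PSMD6, PSMD8, PSME2 and PSME4. The downward genes were PSMB2, PSMC1, PSMC2, PSMC6, PSMD3, PSMD4 and PSMG1. TGACNNNGC was present in 5 of the 7 upward genes (PSMA7, PSMB6, PSMD5, PSME2 and PSME4) and in 2 of the 7 downward genes (PSMD3 and PSMG1). It was present in 14 of the 47 genes and in 15.4% of marked coding genes, and its part in these calls was not tested. For the other motifs the counts in upward and downward genes were 2 and 5 for CCAAT, 2 and 2 for CCGGAAGT, 3 and 3 for GGGCGG, 1 and 0 for AAGATGGCG, and 0 and 0 for GCGCATGC and TGACGTCA. Median promoter G+C was 56.5% in the upward and 50.1% in the downward genes. With the hairpin values divided by their median ratios, only PSMA7 and PSME2 were set apart upward and 14 genes downward, compared with 12.2% and 13.2% of marked coding genes. All 7 downward genes were among those 14, which also held PSMA3, PSMA5, PSMA6, PSMB9, PSMC4, PSMD11 and PSMD14.

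**Figure D2:**
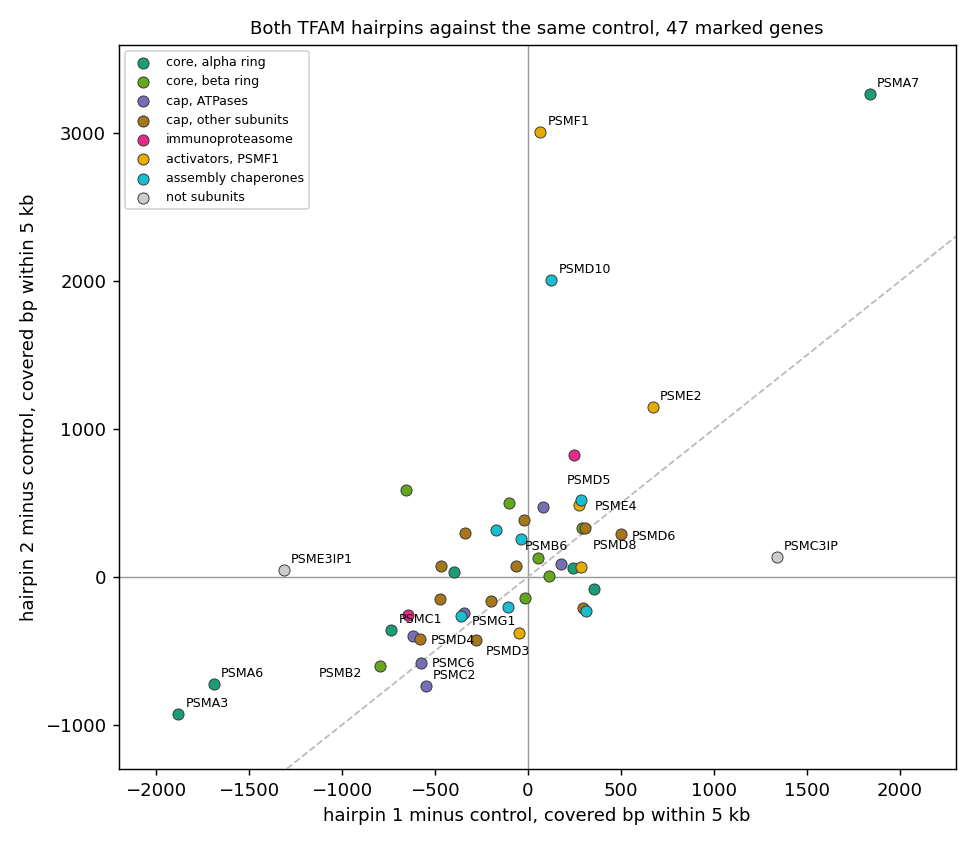
Difference in covered sequence from the control within 5 kb of the start site, for hairpin 1 (x axis, bp) and hairpin 2 (y axis, bp), 1 point per gene for the 47 genes with a promoter peak in every list, coloured by role. The axes share the control library, the dashed line marks equal differences, PSMA7 lies at 1838 and 3264 bp, and PSMF1 and PSMD10 are far from the control in hairpin 2 alone.

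Among the alpha ring genes PSMA7 had the largest increase of all 47 genes in each hairpin. Its promoter peak (chromosome 20, 60716452 to 60720131 in the control) covered 3680, 5518 and 6944 bp. The control was lowest, and the hairpins were 1838 and 3264 bp above it and 1426 bp apart. Most of the added sequence lay upstream of PSMA7, where the peak reached 1681, 3427 and 4642 bp from the start site, while the downstream edge stayed between 1998 and 2301 bp. Upstream, at 375 bp and on the other strand, starts SS18L1, which encodes a chromatin regulator, so the added sequence runs into the body of that gene. The promoter of PSMA7 had the highest G+C of the 50 genes, 74.96%.

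Of the other alpha ring genes, PSMA3, PSMA5 and PSMA6 were lower in both hairpins, PSMA2 was higher in both, and PSMA1 and PSMA4 had the hairpins on different sides of the control. PSMA3, on chromosome 14, had 4553, 2672 and 3627 bp, and PSMA6, also on chromosome 14, had 4007, 2318 and 3285 bp. In both, the hairpins lay below the control but were farther from each other (955 and 967 bp) than hairpin 2 was from the control (-926 and -722 bp). A separate upstream peak gave 955, 0 and 56 bp of the PSMA3 values. PSMA5 had 4973, 4235 and 4615 bp. PSMA1, PSMA2 and PSMA4 differed from the control by between -396 and 356 bp in either hairpin.

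In the beta ring PSMB2 was lower in both hairpins, with 3385, 2590 and 2780 bp. Its peak was narrower on both sides of the start site. PSMB3 had 6053, 6108 and 6183 bp, the most of the 50 genes in the control and in hairpin 1, in a peak that spans the divergent start site of PCGF2, a Polycomb gene. In hairpin 2 that stretch was divided into a pair of peaks. At PSMB1 the control had 4499 bp in a single peak, hairpin 1 had 3846 bp in a single peak, and hairpin 2 had 5087 bp in a pair of peaks. The start site of TBP, 1062 bp upstream on the other strand, lay inside those single peaks and inside the upstream peak of the pair. PSMB4 had 1994, 1894 and 2497 bp, with hairpin 2 alone above the others.

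The cap ATPase genes encode the motor that unfolds substrates. Of the 6, PSMC1, PSMC2, PSMC4 and PSMC6 were lower in both hairpins, where 22.5% of marked coding genes were. PSMC6, on chromosome 14, had 2949, 2374 and 2368 bp, so that the hairpins agreed within 6 bp and their differences from the control were -575 and -581 bp. PSMC1 had 1792, 1174 and 1394 bp, the shortest coverage of the ATPase genes. PSMC2 had 5470, 4921 and 4733 bp, of which 2766, 2578 and 2453 bp belonged to a separate upstream peak over the start site of DNAJC2, a ribosome-associated chaperone gene. PSMC4 fell just outside the definition of set apart, with a difference of -242 bp in its nearer hairpin. PSMC3 (2006, 2090 and 2480 bp) and PSMC5 (2698, 2874 and 2784 bp) were higher in both hairpins but not set apart.

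Other cap subunits were divided. PSMD6 and PSMD8 of the lid were set apart upward, PSMD6 with 1634, 2136 and 1924 bp, and PSMD8 with 2646, 2955 and 2979 bp. Set apart downward were PSMD4, a ubiquitin receptor, with 2246, 1666 and 1829 bp, and PSMD3, a lid subunit, with 3646, 3369 and 3219 bp. PSMD14, the deubiquitinase of the lid, had 3453, 2983 and 3306 bp and PSMD11 had 2916, 2720 and 2753 bp, both with the control highest. In PSMD1, PSMD2, PSMD7, PSMD12 and PSMD13 the hairpins lay on different sides of the control.

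Averaged over roles, core genes had 3455, 3214 and 3604 bp, with medians of 3504.5, 2722.5 and 3151 bp. Without PSMA7 the core means were 3438, 3037 and 3347 bp, with the control highest. Cap genes had means of 2875, 2691 and 2798 bp and medians of 2787, 2864 and 2753 bp, and the immunoproteasome genes had means of 1768, 1555 and 1902 bp. The control was above both hairpins in 8 of 17 cap genes and 5 of 14 core genes, beside 22.5% of marked coding genes. It was below both in 4 and 5, beside 45.0% of marked coding genes. Set apart downward were 5 cap genes and 1 core gene, and upward 2 of each, beside 7.47% and 17.8% of marked coding genes. The hairpins differed from each other by 390 bp on average in core genes, more than either differed from the control with PSMA7 included, and by 107 bp in cap genes, where the differences from the control were -184 and -77.1 bp. The immunoproteasome mean combines PSMB8, which had no promoter peak, PSMB9, lower in both hairpins, and PSMB10, higher in both. Whether these roles differ in their response cannot be tested with 1 library per condition, and genes are not replicates of it.

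In 4 of the 5 genes of the activators and PSMF1 both hairpins lay above the control, beside 45.0% of marked coding genes. At PSMF1 and PSME3 the nearer hairpin was only 66 and 67 bp above it. PSME2 (chromosome 14, start site 24615819), an interferon-inducible activator subunit, had 3302, 3975 and 4452 bp. Its partner PSME1, a neighbour on the same chromosome, had 2423, 2377 and 2045 bp, with the control highest. A peak between these genes enters both windows, and the promoter peak of PSME2 alone was 2329, 2738 and 3325 bp wide. PSME4, the nuclear activator PA200, had 4256, 4530 and 4746 bp and shares its promoter with ACYP2, which starts 120 bp upstream. PSME3, a nuclear activator, had 2550, 2836 and 2617 bp. PSMF1, which encodes the proteasome-binding regulator PI31, had 2102, 2168 and 5110 bp. There the hairpin 2 peak ran 3965 bp into the gene, against 1152 and 1209 bp in the other lists.

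The highest ranking peak of the 47 genes in each list belonged to an assembly gene, PSMD5. This chaperone of the cap base stood at score percentile 99.9 in the control list, 99.5 in hairpin 1 and 99.8 in hairpin 2. It was set apart upward, with 2875, 3162 and 3397 bp. PSMD9 and PSMD10 ranked lower, at percentile 72.3 and 64.2 in the control list, where the median of marked coding genes was 78.6. PSMG1, a chaperone of the alpha ring, was set apart downward, with 3563, 3201 and 3301 bp. PSMD10, also known as gankyrin, had 2904, 3030 and 4914 bp, and in hairpin 2 its peak reached 3767 bp downstream of the start site. PSMG4 was lower in both hairpins, at 2279, 2173 and 2074 bp, and in PSMG2, PSMG3 and PSMD9 the hairpins lay on different sides of the control. In the control list 22 of the 47 genes (46.8%) had a peak above percentile 90, where 24.6% of marked coding genes did. They included 5 of the 7 assembly genes and 8 of the 11 cap subunits other than ATPases. Also among them were 2 of the 6 ATPases, 3 of the 7 alpha ring genes and 1 of the 5 activator genes. For the beta ring this held for PSMB5 alone. In hairpin 1 and hairpin 2 it held for 17 and 21 of the 47 genes, beside 25.1% and 28.3% of marked coding genes.

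**Figure D3:**
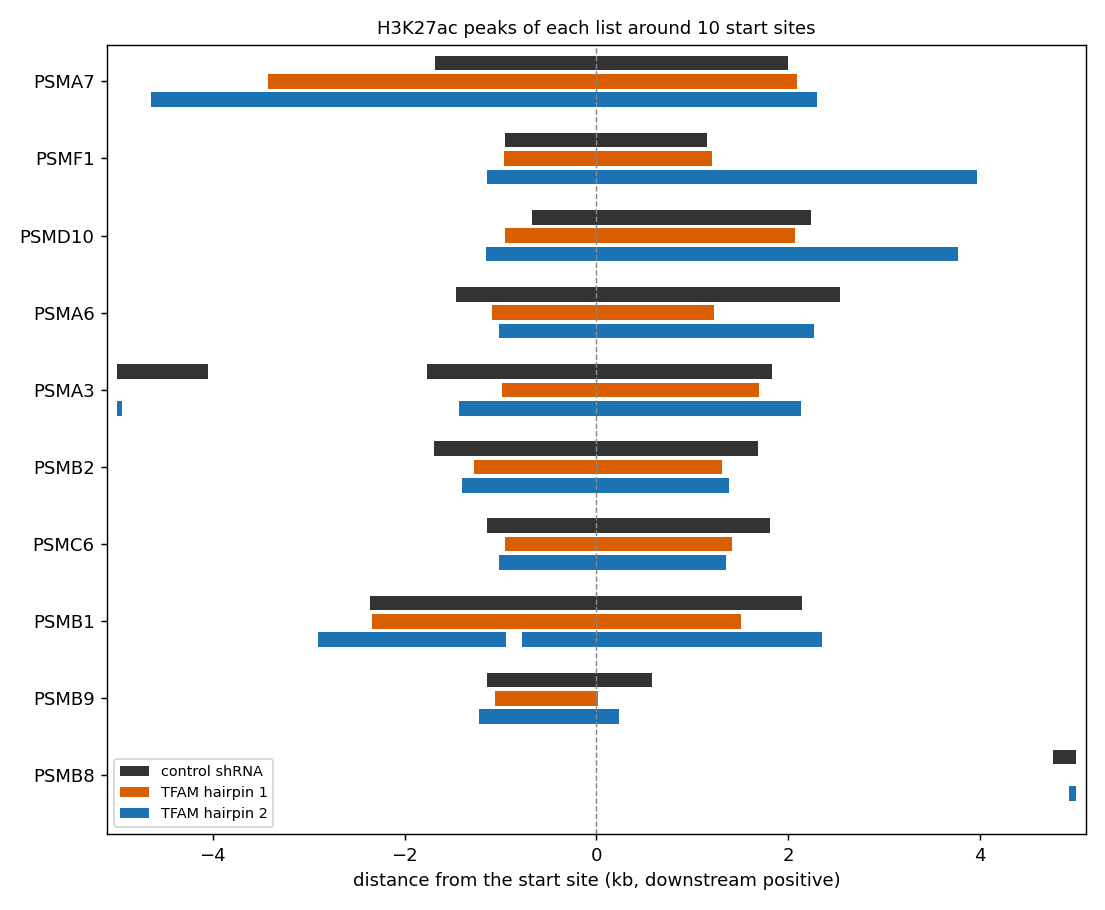
Peaks of each list (bars) around the start sites of selected genes, by distance from the start site in the direction of transcription (x axis, kb, cut at 5 kb on each side). The hairpin peaks of PSMA7 extend upstream, those of PSMF1 and PSMD10 extend downstream in hairpin 2 alone, PSMB9 peaks end close to its start site in the hairpins, and only the margin of a distant peak reaches the PSMB8 window.

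Peaks at proteasome promoters mostly reached farther into the gene than upstream, as did those of marked genes at large. In the control the peak over the start site reached a median of 1204 bp upstream and 1559 bp downstream in the 47 genes, against 1098 and 1347 bp in all marked genes. It reached farther downstream than upstream in 33 of the 47 genes in the control (70.2%, against 65.2% of marked coding genes), in 31 in hairpin 1 and in 33 in hairpin 2. At 1000 bp downstream, 43 of the 47 genes were covered in the control, 41 in hairpin 1 and 44 in hairpin 2. These were 91.5%, 87.2% and 93.6%, and the shares in all marked genes were 74.8%, 78.4% and 84.2%. At 2000 bp downstream 10, 7 and 14 were covered, or 21.3%, 14.9% and 29.8%, and the shares in all marked genes were 21.0%, 21.4% and 29.2%. Hairpin 2 extended farther downstream in proteasome genes and in marked genes at large.

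**Figure D4:**
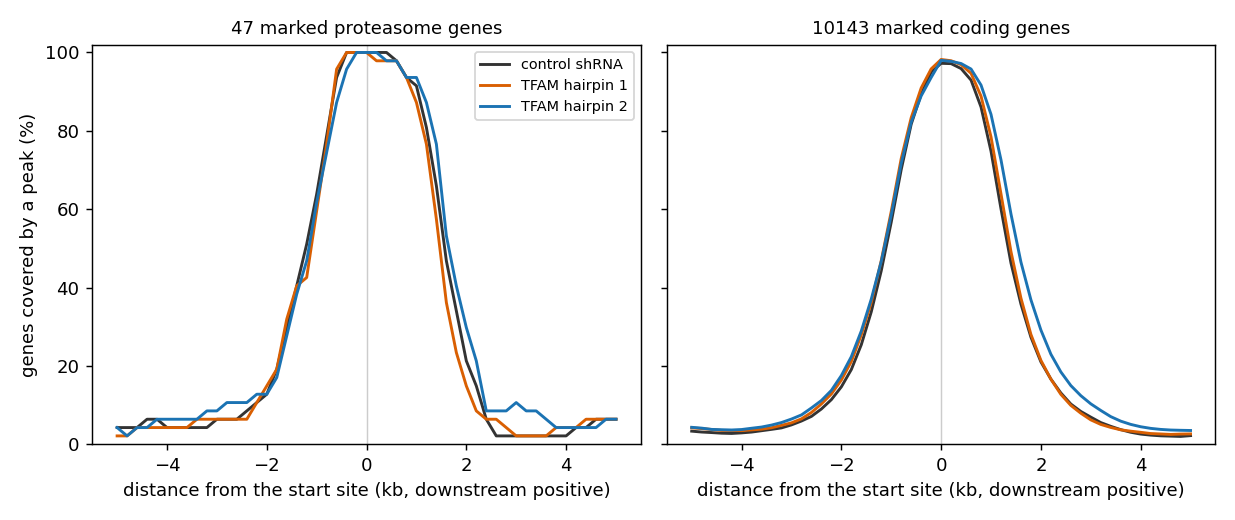
Share of genes covered by a peak (y axis, %) at each distance from the start site (x axis, kb, downstream positive) in the 3 lists, for the 47 marked proteasome genes (left) and the 10143 marked coding genes (right). At 2 kb downstream hairpin 2 covers 29.8% and 29.2% of genes, above the other lists in both panels.

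A divergent start site within 1 kb was found for 15 of the 47 marked genes (31.9%, against 30.2% of marked coding genes). The partner was another coding gene in 9 of them (19.1% of the 47 genes, against 16.8% of marked coding genes). These pairs were PSMA2 with MRPL32, PSMA7 with SS18L1, PSMB9 with TAP1, PSMD10 with ATG4A, PSMD13 with SIRT3, PSME2 with RNF31, PSME3IP1 with RSPRY1, PSME4 with ACYP2, and PSMG2 with CEP76. At such promoters the covered sequence cannot be assigned to either gene. Another coding start site lay within 5 kb of 16 of the 50 genes. How often this holds for coding genes at large was not counted.

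The genes that share only the name pattern varied in hairpin 1. PSMC3IP had 3408, 4746 and 3540 bp, and PSME3IP1 had 4749, 3436 and 4795 bp. In each, hairpin 1 stood alone and hairpin 2 lay within 132 bp of the control.

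The largest differences among other genes of the pathway exceeded those of the subunits. Of 30 such genes, 29 were marked in every list, and of these 5 were set apart upward and 5 downward, beside 50.3%, 17.8% and 7.47% of coding genes by the same definitions. UBB, which encodes polyubiquitin, had 2707, 2554 and 6763 bp. Of the transcription factors that act on proteasome genes, NFE2L1 had 4422, 3416 and 0 bp and NFE2L2 had 6967, 3969 and 4930 bp. The absence of NFE2L1 coverage in hairpin 2 cannot be told apart from a domain wider than any listed peak.

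Subunits and cofactors outside the name pattern were all marked in every list. ADRM1, a ubiquitin receptor of the cap, had 2848, 3384 and 3230 bp. SEM1, a small lid subunit, had 2180, 1908 and 2339 bp, and POMP, the maturation factor of the core, had 2890, 2518 and 2910 bp. AKIRIN2, which carries proteasomes into the nucleus, had 7954, 4027 and 5062 bp, a difference larger than the 1035 bp between the hairpins. Of the genes that deliver substrates, VCP, the segregase, was set apart upward with 2747, 3390 and 3276 bp, and RAD23B downward with 4241, 2946 and 3306 bp.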

How the data were processed

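H3K27ac peak lists of 3 K562 libraries were used, and groups came from the sample titles. Reads with a single place in hg19 were kept and libraries were sequenced on a NextSeq500, per the labels' protocols. Bowtie 0.12.7 and Picard are named without roles, per the submitters' processing notes. Peak names carry a MACS prefix, per the deposited lists. Each peak has the authors' deposited score, used only as a percentile within its list. The caller's version, threshold and use of the input are not given in the sources used here.

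Start sites were those of the canonical transcript in GENCODE release 44 on GRCh37, or the 5' end of the gene where none was tagged. Symbols that occurred more than once were counted once. Covered bp (5 kb on each side) and promoter peaks (1 kb on each side) were computed, and G+C was taken over 1 kb on each side. Motifs were matched by letters on both strands. All genes were measured together, with 50.3% of the 20149 marked in every list. The code was tested on simulated data. Values are given for genes with no promoter peak, the 5 set apart most in each direction, the 6 catalytic subunits, the pair PSME1 and PSME2, and the extremes of each role by mean coverage, and others named were chosen after their values were seen. Some genes of the lists are not reported here. The genes and lists were chosen with earlier results of these data known. The alternatives tried were stricter peak sets, other start sites, promoter widths and windows, other sets of genes, each hairpin alone and a median scaling. Software was matplotlib 3.10.9, SciPy 1.17.1, pandas 2.3.3 and numpy 2.4.6 under Python 3.11.15.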

Additional observations from a re-analysis of the deposited data

How the results depend on the processing

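No paired analysis was possible because each condition has 1 library. Dividing each hairpin by its median ratio to the control changed the counts most, to 11 genes higher in both hairpins (17 without it), 2 set apart upward and 14 set apart downward (7 and 7 without it), and 23 lower in both (17 without it). Keeping the 50% of peaks with the higher scores, 1 promoter was gained in both hairpins, that of PSME2, and 44 genes kept a promoter peak in every list. In that setting the cap difference from the control, averaged over the hairpins, was -40.4 bp in place of -130.6 bp. The core difference was 155.4 bp in place of -45.8 bp, and thus changed sign. With all peaks kept but without PSMA7, a choice made after seeing the data, the core difference was -245.5 bp. The immunoproteasome difference, -39 bp, was 128.8 bp with the 5' end of the gene as start site and 140.8 bp in windows of 10 kb. These shifts of the core and immunoproteasome means were smaller than the spread between the hairpins. The 5' end as start site left 42 genes marked in every list. In the 250 bases upstream alone the YY1 letters were found in 0% of the genes, against 8% with the 50 bases after the start site. The same shares were 0.72% and 2.81% of all coding promoters, and 1.31% and 5.11% of marked ones. In windows of 2 kb or of 10 kb 5 genes were set apart upward, 4 of them among the 7 of the 5 kb window, and 6 downward, all among its 7, and PSMA7 was not among those of 10 kb. Settings chosen after seeing the data, without PSMC3IP, PSME3IP1, PSMA8 and PSMB11 or by the width of the peak over the start site, gave 6 or 7 genes set apart upward and 7 downward. The unknown read depth limits every comparison of covered length.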

Other observations

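Width and rank of a promoter peak did not go together at several genes. The PSMA7 peak stood at score percentile 99.8 in the control list, 82.9 in hairpin 1 and 67.6 in hairpin 2, the lists in which it was 3680, 5518 and 6944 bp wide. PSMC2 stood at percentile 18.5, 35.1 and 60.1, with its peak narrowest in hairpin 2, and PSMB2 at 59.6, 89.98 and 75.1 with its widest peak in the control. Percentiles come from lists of different length and do not show a change between conditions.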
